A study of Homo sapiens with 4 samples.

Results

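The 10 genes DKK4, APCDD1, NOTUM, AXIN2, NKD1, ZNRF3, RNF43, SP5, LEF1 and TCF7 encode feedback antagonists, targets and transcription factors of the WNT pathway. They were taken by symbol from the 57746 genes of the table. They were selected on their WNT roles and on their RPKM in these same 4 libraries, which was known beforehand, so these levels and the differences between the lines are given as description, with no test. RNA was sequenced from 4 human cell lines. SA derives from colonies in soft agar and SPH from colonospheres, and both carry the class mesenchymal in the labels. METS was recovered from a xenograft's lung metastasis and is classed as epithelial, as is DLD1, the parental colorectal cancer line from which the other lines derive. All 4 lines were kept in McCoy's 5A medium with serum. Each line is 1 library, which leaves any difference between lines without a replicate, and the labels do not say whether a derived line is a clone or a pool. Levels are in RPKM, reads scaled to transcript length and library size. Differences are of log2(RPKM + 1), a scale that compresses changes at low levels.

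WNT ligands bind Frizzled and LRP receptors and halt the complex of APC, AXIN, GSK3 and CK1 that marks beta-catenin for destruction. Beta-catenin then enters the nucleus and activates genes through TCF and LEF factors, and many of these genes encode inhibitors that dampen the signal. In the intestine the pathway maintains the crypt. DLD1, like most colorectal cancers, carries a truncated APC, so that beta-catenin signalling is on without added ligand.

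The epithelial identity of the lines was checked on 8 markers. They summed to 1418 RPKM in SA, 1493 in SPH, 2360 in METS and 1881 in DLD1, so all 4 lines expressed epithelial genes. The keratins KRT8 and KRT18 made up most of each sum. Of the 7 that reached 1 RPKM, 3 lay lower and 1, CDH17, higher in both mesenchymal lines than in both epithelial lines. Over all genes 13.2% lay lower and 24.8% higher. The 7 mesenchymal markers summed to 23.6 RPKM in SA and 22.7 in SPH, against 1.15 in METS and 1.36 in DLD1. VIM, the intermediate filament vimentin, made up most of the sums in SA and SPH. CDH2, FN1 and ZEB1, also among the 7, stayed under 1 RPKM in every line. None of 8 fibroblast markers or 4 endothelial markers found in the table reached 1 RPKM in any line, and 3 of 5 leukocyte markers were listed at 0 in all lines. CD14, a myeloid marker, stood at 1.36 RPKM in METS and at most 0.89 elsewhere. Between 10920 and 11238 genes reached 1 RPKM per line. At 1 RPKM a transcript of 1 kb stood for about 48.4 to 53.8 reads, estimated from the step size of low values.

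Promoter sequences are shown for SP5, which varied less between the lines though not least, and APCDD1, which was among the genes that varied most. Each run is the 250 bases before the transcription start, from RefSeq on GRCh38.p14, written 5′ to 3′ on the strand of the gene. Capitals mark matches on either strand to CTTTG followed by 2 bases that are each A or T, the letters of a TCF/LEF site. The windows lie at chr2:170715087-170715336 (plus strand) for SP5 and at chr18:10454385-10454634 (plus strand) for APCDD1.
SP5: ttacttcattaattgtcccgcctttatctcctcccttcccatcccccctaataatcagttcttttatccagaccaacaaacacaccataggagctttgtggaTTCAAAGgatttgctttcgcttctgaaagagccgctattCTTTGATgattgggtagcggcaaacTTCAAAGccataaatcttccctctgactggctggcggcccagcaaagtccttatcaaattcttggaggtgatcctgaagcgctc
APCDD1: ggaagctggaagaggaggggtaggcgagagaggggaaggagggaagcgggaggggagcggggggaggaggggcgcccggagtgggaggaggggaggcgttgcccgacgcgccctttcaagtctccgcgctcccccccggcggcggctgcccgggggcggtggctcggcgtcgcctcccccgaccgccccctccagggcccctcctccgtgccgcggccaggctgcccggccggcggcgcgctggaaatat
The SP5 window held 3 matches, at 142 to 148, 103 to 109 and 78 to 84 bases before the start, and none overlapped another. The APCDD1 window held none. The SP5 window had a GC content of 45.6% and the APCDD1 window 77.2%. A link between matches and variation was not tested. Of 35116 promoter windows of this length 12.0% held at least 1 match and 43 held 3 or more. A match here describes letters and is not a measured site, and a window without a match says nothing of sites elsewhere. Windows of 5 of the 10 genes were read. Both windows of RNF43 held no match, and 1 of 2 windows of TCF7 held 1 match. The LEF1 window held none, but the bases after its start were not found in a GENCODE 29 transcript of LEF1, so that start is uncertain.

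The secreted antagonists DKK4 and NOTUM and the membrane antagonist APCDD1 had low levels, between 2.22 and 4.26 RPKM in SA and SPH and under 1 RPKM in METS and DLD1. DKK4 encodes a dickkopf protein that blocks the LRP co-receptors. It stood at 4.26 RPKM in SA and 3.47 in SPH, against 0.04 in METS and 0.04 in DLD1. A level of 0.04 RPKM corresponds to about 2 reads in each of METS and DLD1, so DKK4 was near the limit of detection there. The ratio of SA to DLD1 was 102, with a 95% interval of 27.9 to 851 from counting error alone, and that of SPH to DLD1 was 83.2, with an interval of 22.7 to 693. On the log2 scale DKK4 was 2.34 higher in SA and 2.10 higher in SPH than in DLD1, while METS and DLD1 did not differ at the 2 decimals of the table. In these bulk libraries fewer cells expressing a gene and less RNA per cell cannot be told apart.

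APCDD1, a membrane glycoprotein that binds WNT and LRP5, stood at 3.06 RPKM in SA and 2.59 in SPH, against 0.38 in METS and 0.27 in DLD1. The level was 11.3 times that of DLD1 in SA, 9.59 times in SPH and 1.41 times in METS. The values in METS and DLD1 rest on about 114 and 86 reads, so APCDD1 was detected in all 4 lines. NOTUM, a secreted deacylase that removes the lipid from WNT ligands, stood at 2.22 RPKM in SA and 2.57 in SPH, against 0.48 in METS and 0.65 in DLD1. Unlike DKK4 and APCDD1, NOTUM was higher in SPH than in SA. It was 3.42 times the DLD1 level in SA and 3.95 times in SPH, and 0.738 times in METS. For all 3 genes the 2 mesenchymal lines lay above both epithelial lines. Summed over the 3 genes, the level was 9.54 RPKM in SA and 8.63 in SPH, against 0.90 in METS and 0.96 in DLD1. DKK4 made up 44.7% and 40.2% of the sum in SA and SPH, and 4.44% and 4.17% in METS and DLD1.

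**Figure D1:**
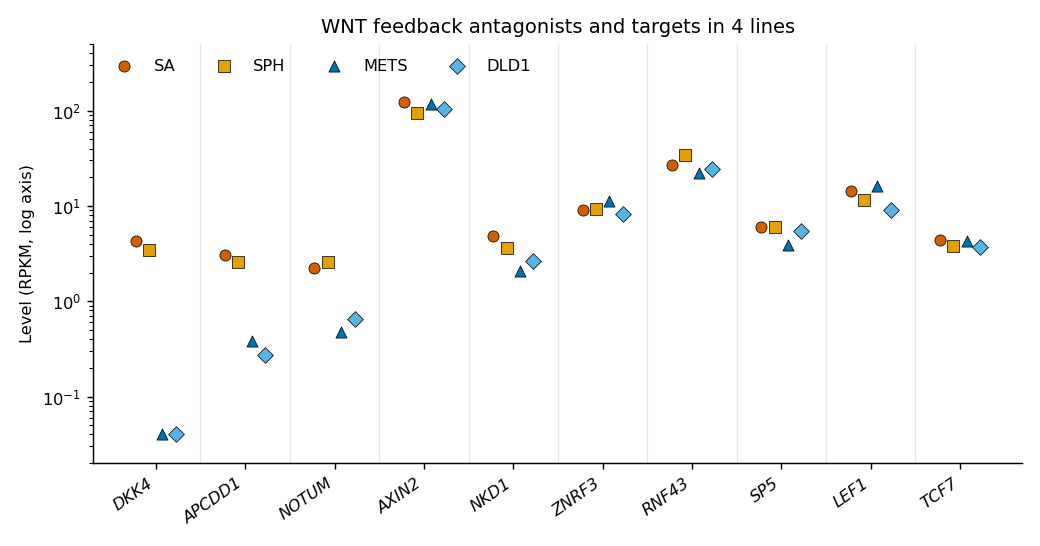
Level of each of the 10 genes in SA, SPH, METS and DLD1 in RPKM on a log axis, with 1 point per library and no replicates. DKK4, APCDD1 and NOTUM lie between 2.22 and 4.26 RPKM in SA and SPH and under 1 RPKM in METS and DLD1, whereas AXIN2 lies between 95.2 and 122 RPKM in every line.

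RNF43 and ZNRF3 are related transmembrane ubiquitin ligases that remove Frizzled receptors from the cell surface. RNF43 stood at 26.8 RPKM in SA and 34.4 in SPH, against 22.0 in METS and 24.4 in DLD1. It was thus highest in SPH, at 1.41 times DLD1, and SA exceeded DLD1 by 9.78%. ZNRF3 stood at 9.11 RPKM in SA, 9.21 in SPH, 11.2 in METS and 8.21 in DLD1. ZNRF3 was highest in METS, at 1.37 times DLD1, and SA and SPH lay between METS and DLD1. RNF43 was the more abundant of the pair per length in every line, with 74.7% of their summed RPKM in SA, 78.9% in SPH, 66.1% in METS and 74.9% in DLD1. METS thus had the lowest RNF43 and the highest ZNRF3 of the 4 lines. Whether counting used strand is not stated. ZNRF3-AS1, the antisense gene at the ZNRF3 locus, is listed at 0 in all lines.

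AXIN2 and NKD1 act inside the cell. AXIN2, a scaffold of the destruction complex and the standard readout of beta-catenin signalling, was the most abundant of the 10. It stood at 122 RPKM in SA, 95.2 in SPH, 116 in METS and 104 in DLD1. SA and SPH held the highest and the lowest AXIN2 level, so the classes overlapped, and the highest level was 1.28 times the lowest. NKD1, which binds Dishevelled and restrains WNT signalling, stood at 4.82 RPKM in SA and 3.64 in SPH, against 2.07 in METS and 2.67 in DLD1. NKD1 was 1.81 times the DLD1 level in SA, 1.36 times in SPH and 0.775 times in METS. Both mesenchymal lines lay above both epithelial lines for NKD1, and SPH lay about as far above DLD1 (0.34 on the log2 scale) as it lay below SA (-0.33 for SPH minus SA).

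SP5, LEF1 and TCF7 encode nuclear factors that are also WNT targets. SP5, an Sp family factor that competes with activators at WNT target genes and whose promoter is printed above, stood at 6.04 RPKM in SA and 6.05 in SPH, against 3.93 in METS and 5.52 in DLD1. The 2 mesenchymal lines were alike, DLD1 was close below them, and METS was the line that differed, at 0.712 times DLD1. The counting intervals of the ratios to DLD1, 0.975 to 1.23 in SA and 0.981 to 1.23 in SPH, included 1. LEF1 stood at 14.5 RPKM in SA, 11.6 in SPH, 16.0 in METS and 9.07 in DLD1. LEF1 was higher in all 3 derived lines than in DLD1, by 1.60 times in SA, 1.28 times in SPH and 1.76 times in METS, and it did not follow the classes. APCDD1, ZNRF3 and TCF7 also lay above DLD1 in all 3 derived lines, which makes 4 of 10 genes (TCF7 not so in SPH with median-of-ratios factors), where 24.4% of all genes did and 21.4% lay below it. TCF7 varied least of the 10, at 4.39 RPKM in SA, 3.76 in SPH, 4.27 in METS and 3.72 in DLD1. For TCF7 the counting interval of the ratio of SPH to DLD1, 0.95 to 1.08, also included 1.

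LEF1 and TCF7 belong to a family with TCF7L2, the main TCF factor of intestinal epithelium, and TCF7L1, which often represses. TCF7L2 stood at 13.6 RPKM in SA, 12.1 in SPH and 10.6 in METS, against 16.3 in DLD1. TCF7L1 did not exceed 1.04 RPKM. The summed level of the 4 factors was 33.3 RPKM in SA, 28.2 in SPH, 31.3 in METS and 30.1 in DLD1. Within the sum, LEF1 held 43.6% in SA, 41.1% in SPH and 51.1% in METS, against 30.2% in DLD1. TCF7L2 held 41.0% in SA, 42.8% in SPH and 33.7% in METS, against 54.0% in DLD1. In METS, therefore, LEF1 was the most abundant of the family per length, and in DLD1 it was TCF7L2, while their levels lay close together in SA and SPH.

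**Figure D2:**
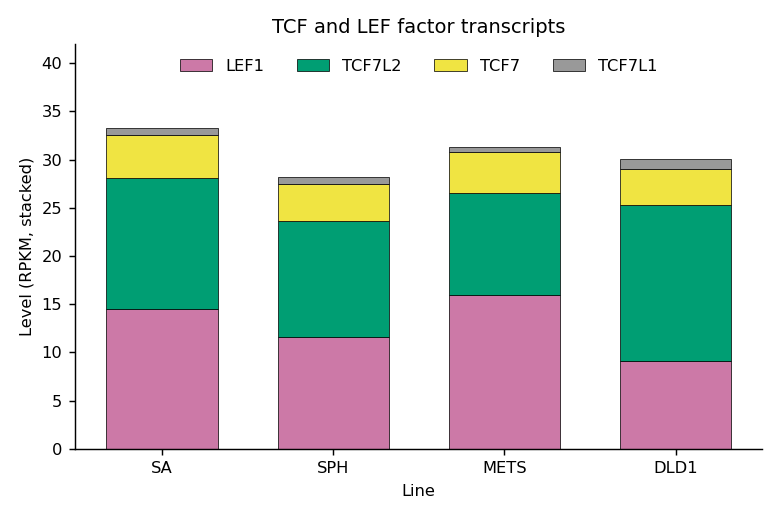
Stacked levels of LEF1, TCF7L2, TCF7 and TCF7L1 in RPKM in SA, SPH, METS and DLD1, 1 library per line. The sums lie between 28.2 and 33.3 RPKM, while the LEF1 part is 16.0 RPKM in METS and 9.07 in DLD1.

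Counted over the 10 genes, the differences from DLD1 ran mostly upward in SA and SPH. All 10 lay above DLD1 in SA, where 55.2% of all genes tested did. In SPH 9 of 10 lay above DLD1, AXIN2 being the exception, against 55.9% of all genes, and with median-of-ratios factors 8 did, TCF7 then lying just under its DLD1 level. In METS 4 of the 7 that reached 1 RPKM in METS or DLD1 lay above DLD1 (AXIN2, ZNRF3, LEF1 and TCF7) and 3 below (NKD1, RNF43 and SP5), while 44.7% of all genes lay above. The median difference of the 10 genes on the log2 scale was 0.43 in SA, 0.33 in SPH and 0.06 in METS, beside 0.03, 0.03 and -0.03 over all genes. The 3 comparisons share the DLD1 library. At least 2-fold higher than DLD1 were 2 genes in SA (DKK4 and APCDD1), where 0.44% of all genes were higher and 0.238% lower by that rule, and 3 in SPH (with NOTUM), where 0.716% were higher and 0.542% lower. None was 2-fold lower in SA or SPH. DKK4, APCDD1 and NOTUM passed the minimum of 1 RPKM through SA and SPH alone, which favours a higher value there. None of the 10 reached 2-fold in METS, where 0.523% of genes were at least 2-fold higher and 0.896% lower. NOTUM missed the 2-fold rule in SA at 0.96, since the rule is on log2(RPKM + 1). Its RPKM in SA was 3.42 times that of DLD1. Because the genes were chosen with these contrasts known, nothing is read from these counts.

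**Figure D3:**
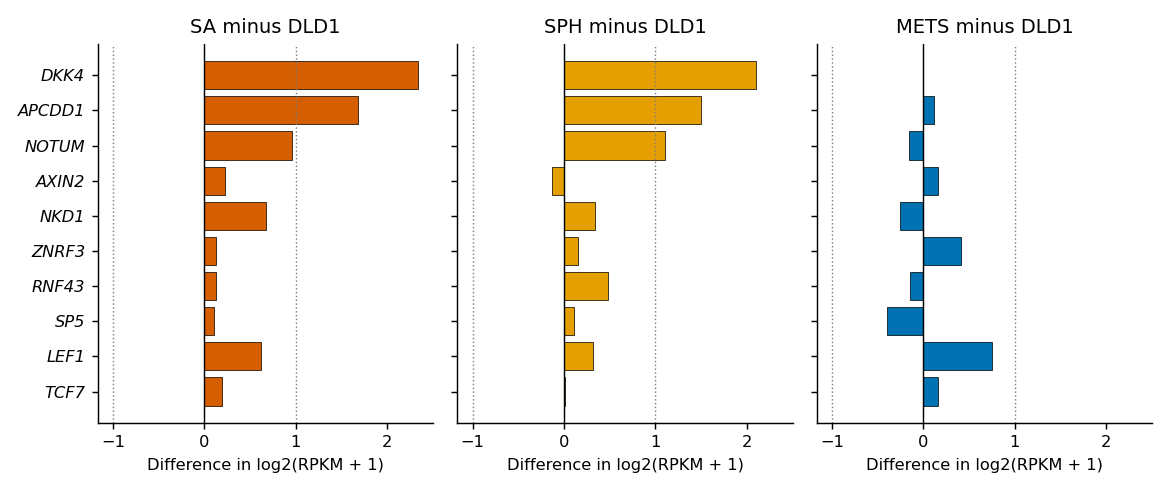
Difference of each line from DLD1 in log2(RPKM + 1) for the 10 genes, with bars from 0 and dotted lines at 2-fold on that scale. DKK4 reaches 2.34 in SA and 2.10 in SPH and stays at 0 in METS, and LEF1 is the gene with the largest bar in METS, at 0.75.

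Between the classes, 6 of 10 genes (DKK4, APCDD1, NOTUM, NKD1, RNF43 and SP5) lay higher in both mesenchymal lines than in both epithelial lines, where 24.8% of 11664 genes did. None of the 10 lay lower in both, where 13.2% did. Their mean class differences on the log2 scale were 2.22, 1.53, 1.12, 0.63, 0.38 and 0.31 in that order. Those of RNF43 and SP5 moved by over 1.5 times with 1 library left out, being 0.20 for RNF43 without SPH and 0.11 for SP5 without METS or 0.52 without DLD1. The other 4 overlapped between the classes, with differences between -0.06 for ZNRF3 and 0.10 for LEF1. The median over the 10 was 0.35, beside 0.04 over all genes. DKK4, APCDD1 and NOTUM reached 1 RPKM in the mesenchymal lines alone. For them the minimum itself favours a higher value in SA and SPH. SA and SPH differed from each other by less than 2-fold in every one of the 10, where 0.262% of all genes were at least 2-fold apart, with differences of SPH minus SA between -0.36 for AXIN2 and 0.35 for RNF43. METS was the lowest of the 4 lines for 4 of 10 genes (NOTUM, NKD1, RNF43 and SP5), where 39.2% of all genes were lowest in METS, and the highest for ZNRF3 and LEF1, where 24.0% of all genes were highest.

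Over the 124 other genes of the pathway, listed by role, no gene passed the class test (0 of 73 tested past adjusted p 0.05, limma-trend with Benjamini-Hochberg adjustment over 11262 genes). Without adjustment 9 of the 73 (12.3%) had p under 0.05, beside 8.65% of all genes, and limma without the trend also passed 0 genes, with 9 under 0.05 unadjusted. Over all genes 0.32% passed as higher and 0.0355% as lower in the mesenchymal lines. The p-values rest on how far apart the lines of each class lie, not on replicate cultures. Without the DLD1 library, which leaves METS as the lone epithelial line and assumes that it varies like SA and SPH do, 5 pathway genes passed, namely CD44, ETS2, IGFBP4, SLC12A2 and WNT10A.

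The list of ligands and their secretion machinery holds 21 genes. For the 7 with at least 1 RPKM somewhere, SA and SPH both lay below METS and DLD1, with a median class difference of -0.24, beside 13.2% of all genes lower and a median of 0.04. None of the 6 that could be tested passed (WNT11 was not tested), and 2 of the 7, WNT10A and WNT11, reached 1 RPKM in epithelial lines alone, so the minimum itself favours a lower value in SA and SPH for them. The ligand gene WNT10A stood at 0.76 RPKM in SA and 0.78 in SPH, against 2.55 in METS and 1.65 in DLD1 (class difference -0.79 ± 0.17, SE, with an adjusted p = 0.27 by limma-trend). WNT7B stood at 1.24 RPKM in SA and 1.30 in SPH, against 1.95 in METS and 1.83 in DLD1. WNT11 reached 1.16 RPKM in METS and at most 0.18 in the other lines. PORCN, the acyltransferase that lipidates WNT ligands, stood at 1.99 RPKM in SA and 2.50 in SPH, against 2.72 in METS and 2.94 in DLD1. WLS, which carries ligands to the surface, differed little, at 15.1 RPKM in SA and 14.2 in SPH, against 15.5 in METS and 15.7 in DLD1.

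Of 14 receptor, R-spondin and LGR genes that reached 1 RPKM, 2 lay higher and 1 lower in both mesenchymal lines, beside 24.8% and 13.2% of all genes, with a median of -0.01. PTK7, a WNT co-receptor of the planar polarity branch, stood at 13.6 RPKM in SA and 12.0 in SPH, against 8.50 in METS and 10.7 in DLD1 (adjusted p = 0.53, limma-trend). LRP6, a co-receptor that DKK proteins bind, stood at 3.22 RPKM in SA and 2.52 in SPH, against 4.31 in METS and 2.94 in DLD1, and LRP5, its paralogue, ranged from 15.3 to 19.9 RPKM. LGR5, the R-spondin receptor of crypt stem cells, was lowest in METS, at 4.94 RPKM against 8.73 in DLD1. LGR6 stood at 0.53 RPKM in SA and 0.60 in SPH, against 1.13 in METS and 0.97 in DLD1. No R-spondin exceeded 0.08 RPKM in any line.

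Among other antagonists, 5 of 18 reached 1 RPKM and 2 of them, IGFBP4 and TPBG, lay higher in both mesenchymal lines, as 24.8% of all genes did. IGFBP4, a binding protein that also antagonises WNT, stood at 10.2 RPKM in SA and 9.17 in SPH, against 4.71 in METS and 8.74 in DLD1. NKD2, the paralogue of NKD1, did not share its order and stood at 4.78 RPKM in SA and 7.91 in SPH, against 5.11 in METS and 3.61 in DLD1. KREMEN1, a receptor through which DKK proteins act, was highest in METS, at 12.4 RPKM, against 7.20 in SA, 8.75 in SPH and 7.81 in DLD1. TPBG stood between 8.12 and 10.1 RPKM.

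The next list holds genes of the destruction complex, its regulators such as Dishevelled, and beta-catenin itself, so it is not the complex alone. Of 20 listed genes 18 had at least 1 RPKM somewhere. Among these, 6 lay lower and 1 higher in both mesenchymal lines, beside 13.2% and 24.8% of all genes. Their sizes were small, with all 18 within class differences of -0.23 to 0.26, with a median of 0.00. CTNNB1, which encodes beta-catenin, stood at 58.7 RPKM in SA and 50.6 in SPH, against 65.2 in METS and 60.1 in DLD1, and the kinase gene CSNK1E stood at 19.6 RPKM in SA and 19.2 in SPH, against 23.1 in METS and 22.8 in DLD1. FBXW11, a subunit of the ligase that degrades beta-catenin, was lowest in METS at 5.26 RPKM and ranged from 7.75 to 8.29 elsewhere. FRAT1, a GSK3 binding protein, was highest in SPH at 2.41 RPKM and did not exceed 1.47 elsewhere. CSNK1A1, the kinase that primes beta-catenin, ranged from 35.5 to 43.5 RPKM.

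Of 14 nuclear partners of beta-catenin that reached 1 RPKM, 4 lay lower and 1 higher in both mesenchymal lines, beside 13.2% and 24.8% of all genes, with a median class difference of 0.02. The corepressor gene TLE4 had the lowest class difference of these, at -0.52. It stood at 3.63 RPKM in SA and 2.84 in SPH, against 5.76 in METS and 4.42 in DLD1 (adjusted p = 0.45, limma-trend). TLE1 stood at 9.33 RPKM in SA and 8.89 in SPH, against 10.3 in METS and 10.7 in DLD1. The coactivators EP300 (5.52 to 6.68 RPKM) and BCL9L (11.4 to 14.6 RPKM), and the abundant TLE5 (35.5 to 37.7 RPKM, listed as AES) and HDAC1 (39.2 to 44.3 RPKM), varied little.

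Of 18 other WNT targets that reached 1 RPKM, 5 lay higher and 3 lower in both mesenchymal lines, beside 24.8% and 13.2% of all genes, with a median of 0.05. CD44, a cell surface receptor for hyaluronan, stood at 5.84 RPKM in SA and 5.60 in SPH, against 1.36 in METS and 4.37 in DLD1 (0.92 ± 0.36, SE, adjusted p = 0.56, limma-trend). SLC12A2, a chloride cotransporter gene of the crypt, stood at 66.2 RPKM in SA and 61.2 in SPH, against 30.1 in METS and 42.5 in DLD1 (0.81 ± 0.17, SE, adjusted p = 0.28, limma-trend). ETS2 stood at 59.0 RPKM in SA and 55.5 in SPH, against 22.5 in METS and 49.6 in DLD1. CD44 and ETS2 thus had METS far below the other 3 lines. JUN, an AP-1 factor, went the other way, at 7.38 RPKM in SA and 3.44 in SPH, against 13.7 in METS and 9.04 in DLD1. The cyclin gene CCND1 stood at 142 RPKM in SA and 122 in SPH, against 212 in METS and 150 in DLD1, and BMP4 ranged from 212 to 241 RPKM.

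**Figure D4:**
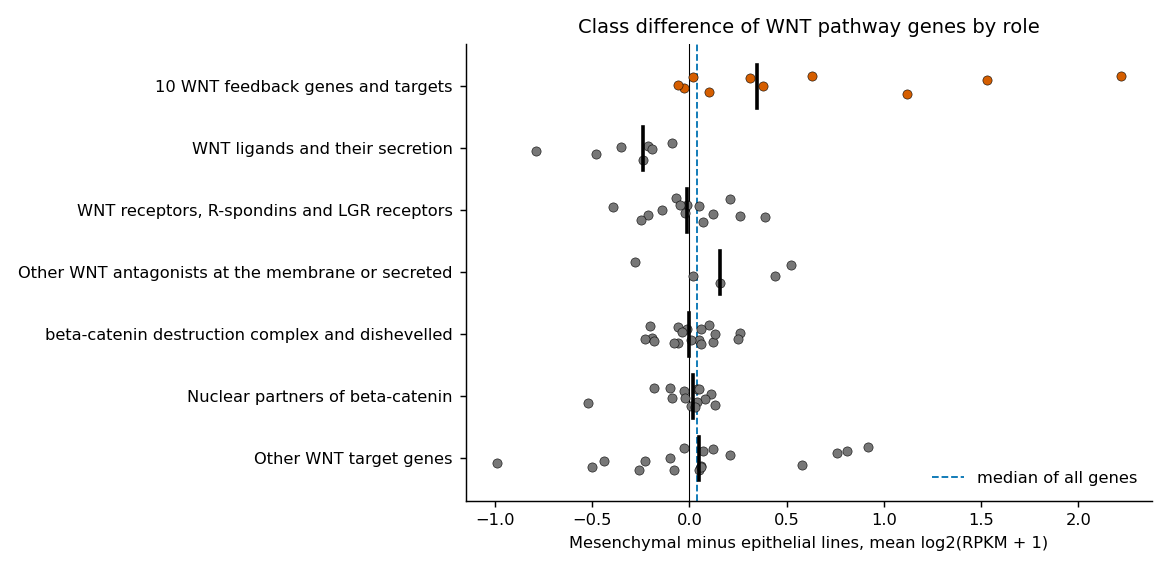
Class difference (mean log2(RPKM + 1) of SA and SPH minus that of METS and DLD1) of pathway genes that reached 1 RPKM in a line, by role, with 1 point per gene, a black bar at each median and a dashed line at the median of all genes. The 10 named genes run from -0.06 to 2.22, and the 7 ligand and secretion genes all lie below 0.

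Neighbouring genes on the chromosome that reached 1 RPKM had smaller class differences than DKK4, APCDD1 and NOTUM. These 3 genes were chosen with their differences known, so a larger value than in neighbours is description only. RAB31, a neighbour of APCDD1 that stayed under 1 RPKM in every line, was left out here and is given under other observations. Of 60 protein-coding neighbours, 3 on each side of each gene, 39 reached 1 RPKM, and their class differences lay between -0.44 and 0.35. The 5 measured neighbours of DKK4 lay between -0.30 and 0.20, beside 2.22 for DKK4, and the 2 measured neighbours of APCDD1, VAPA and NAPG, both lay at 0.06, beside 1.53. The 5 measured neighbours of NOTUM lay between -0.16 and 0.33, beside 1.12. KREMEN1, described above, and XBP1 are neighbours of ZNRF3, and like ZNRF3 both were highest in METS, as were 24.0% of all genes. HSCB and CCDC117, the other measured neighbours of ZNRF3, were highest in SA. SUPT4H1, next to RNF43, had the lowest difference of all neighbours, at 51.8 RPKM in SA and 36.7 in SPH, against 64.3 in METS and 55.3 in DLD1, and was named after its values were seen.

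**Figure D5:**
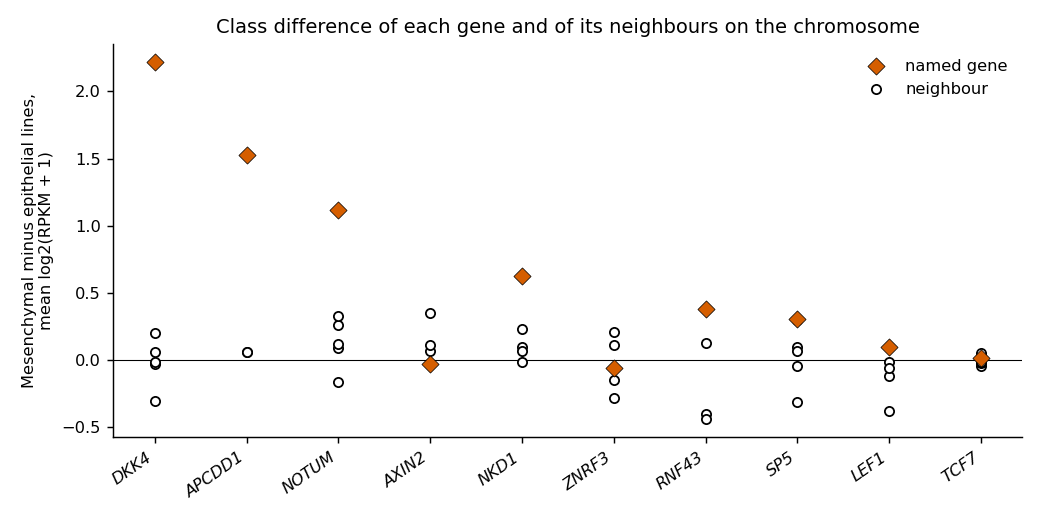
Class difference (mean log2(RPKM + 1) of SA and SPH minus that of METS and DLD1) of each of the 10 genes (diamonds) and of those of its 6 nearest protein-coding neighbours that reached 1 RPKM (open circles). The diamonds of DKK4, APCDD1 and NOTUM stand at 2.22, 1.53 and 1.12, above every neighbour shown.

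Genes with the most similar profiles were sought for the 3 genes whose log2 level spanned at least 1. The measure was the Euclidean distance between centred log2 profiles over the 4 lines. The search covered 10904 genes that reached 1 RPKM in a line. Gene names starting with RPL, RPS or MT-, and those of small RNAs and clones, were left out. Nearest to DKK4 were the basal keratin KRT5 (distance 0.32), the matrix protein SPARC (0.37) and the crosslinking enzyme TGM2 (0.44). Nearest to APCDD1 were the lysyl oxidase family gene LOXL4 (0.15), NELL2 (0.15) and GMFG (0.17). Nearest to NOTUM were RGCC (0.09), a cell cycle regulator at 4.42 RPKM in SA and 5.12 in SPH, against 1.62 in METS and 1.67 in DLD1, then the iron reductase gene CYBRD1 (0.11) and PRKCDBP (0.11). A short distance on this scale, which compresses low levels, does not mean alike ratios. PRKCDBP stood at 0 RPKM in METS and 0.01 in DLD1, against 0.48 and 0.65 for NOTUM. NELL2 was listed at 0 in both lines, where APCDD1 stood at 0.38 and 0.27. With 4 points per profile these distances only describe the libraries.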

How the data were processed

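Total RNA of 4 lines was sequenced with Illumina's standard library protocol, according to the labels. The authors deposited RPKM values in a single table, per gene and line and rounded to 2 decimals. RPKM was inferred from the values, since value times exon length in kb (GENCODE 29) summed to between 913200 and 924100 per line. Reads were placed on hg19, per the submitters' processing notes. No source used here gives the aligner, counter, annotation or use of strand.

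The 10 genes, the role lists and the tests were chosen with earlier results of these data known. Depth was estimated from the period of low values of genes of 200 to 500 bases, and read numbers are RPKM times GENCODE 29 exon length times that depth. Ratio intervals are exact binomial (95%) and cover counting error only. Folds used log2(RPKM + 1) and genes of at least 1 RPKM in the higher library. The class test was limma-trend, from limma 3.58.1 under R 4.3.3, with Benjamini-Hochberg adjustment. It covered the 11262 genes with 1 RPKM or more in 2 or more libraries, and it was tested on simulated data. Outside the 10 genes, the text names per list the 4 measured genes with the largest class difference, the 2 most abundant, and the 3 nearest profiles. Neighbours came from RefSeq (GRCh38.p14), used for order only. TLE5 and CEMIP were matched by older symbols, and PECAM1 was not matched. Alternatives were other pseudocounts (0.1 and 5), filters, fold rules (1.5-fold and 4-fold), median-of-ratios factors, no trend and leaving out each library. Python 3.11.15, pandas 2.3.3 and scipy 1.17.1 were used.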

Additional observations from a re-analysis of the deposited data

How the results depend on the processing

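The class test passed 40 genes, against 26 with a pseudocount of 0.1, 5 with a minimum of 5 RPKM and 0 with no filter (2208 of 24097 at an unadjusted p under 0.05, limma-trend). Leaving out 1 library leaves 1 class with a lone line, assumed to vary like the other class, and gave 5 to 305 genes (5 without SA, 6 without SPH, 27 without METS and 305 without DLD1), and 0 to 5 pathway genes outside the 10. With a minimum of 5 RPKM, 2 of the 10 genes had classes that did not overlap, because fewer genes were counted. Leaving out 1 library gave 7 to 9 such genes, since fewer lines then have to be ordered. The number of the 10 genes at least 2-fold from DLD1 was 0 in SA and 0 in SPH with a pseudocount of 5 or a minimum of 5 RPKM, and 1 in each by a 4-fold rule. By a 1.5-fold rule it was 5 in SA and 1 in METS. The median class difference of the 10 genes ranged from 0.28 to 0.48 with 1 library left out. That of DKK4 was 4.82 with a pseudocount of 0.1 and 0.81 with 5, that of APCDD1 2.79 and 0.55, and that of NOTUM 1.92 and 0.41. The differences of AXIN2 (-0.20 to 0.15), ZNRF3 (-0.27 to 0.14), LEF1 (-0.28 to 0.47) and TCF7 (-0.07 to 0.11) changed sign with the library left out. No paired analysis was possible because each line has 1 library and the labels give no replicate numbers. Levels under 0.1 RPKM rest on few reads, and differences there were not tested.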

Other observations

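Of 38 other pathway genes above 0 but under 1 RPKM in every line, 12 lay higher and 3 lower in both mesenchymal lines, beside 21.0% and 6.78% of all genes at such levels. None was tested, many rest on few reads, and those given here were named after their values were seen. WNT10B stood at 0.63 RPKM in SA and 0.47 in SPH, against 0.74 in METS and 0.93 in DLD1, and FZD8, a Frizzled receptor, at 0.37 RPKM in SA and 0.40 in SPH, against 0.46 in METS and 0.63 in DLD1. FGF20, a growth factor gene and WNT target, stood at 0.83 RPKM in SA and 0.92 in SPH, against 0.09 in METS and 0.16 in DLD1. DKK1, a relative of DKK4 that blocks LRP co-receptors, stood at 0.27 RPKM in SA and 0.20 in SPH, against 0.01 in METS, and is listed at 0 in DLD1. DKK3 stood at 0.24 RPKM in SA and 0.22 in SPH, against 0.07 in METS and 0.06 in DLD1. The ligand gene WNT6 stood at 0.17 RPKM in SA and 0.11 in SPH, against 0.01 in each of METS and DLD1, and WNT5A at 0.79 RPKM in SA and 0.68 in SPH, against 0.39 in METS and 0.14 in DLD1. RAB31, a protein-coding neighbour of APCDD1 that also stayed under 1 RPKM, stood at 0.25 RPKM in each of SA and SPH, against 0.01 in each of METS and DLD1.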
